A study of Mus musculus with 8 samples.

Results

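The leukocyte adhesion molecules described here are 9 genes that were chosen by name: the selectins *Sele* and *Selp*, the selectin ligand *Selplg*, the endothelial counter-receptors *Icam1* and *Vcam1*, and the integrin chains *Itgal*, *Itgam*, *Itgb2* and *Itga4*. They were 9 of the 27998 genes in the matrices, and 10 matrix entries carried these symbols because *Itgam* was listed under a pair of identifiers. The mice were male, on the C57BL/6 background, aged 10–12 weeks and carried no named transgene or deletion. In the IR group the left anterior descending coronary artery was closed for 30 min and then reopened, and the sham group had the operation without closure. The left ventricle was digested to single cells 6 h after surgery, and the sham library is the one whose sample titles read 0 h. The labels list 4 samples for each group, and the study states that 3 hearts were pooled into a sample. The deposited matrix of a group gives its cells no sample. Each group was thus 1 library, and no test between sham and IR was possible.

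Leukocytes leave the blood by a cascade of adhesion steps. Selectins on activated endothelium catch passing cells by sugars carried on ligands such as PSGL-1 (*Selplg*) and let them roll, chemokines then switch leukocyte integrins to their binding form, and the integrins hold on to immunoglobulin-family partners on the vessel wall. LFA-1 (*Itgal* with *Itgb2*) and Mac-1 (*Itgam* with *Itgb2*) bind ICAM-1, whereas VLA-4, which contains the *Itga4* chain, binds VCAM-1.

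Upstream DNA is shown for the selectin genes and *Icam1*, because their transcripts were higher in the IR library in stromal or endothelial cells and because kappa B sites in these promoters are textbook examples of inflammatory control. The RefSeq promoter table (GRCm38.p6) held 5 of the 9 members. The sequences are the 250 bases before each start, on the plus strand at chr1:164047984-164048233 for *Sele*, chr1:164115014-164115263 for *Selp* and chr9:21015690-21015939 for *Icam1*. Capitals mark matches on either strand to GGNNNTTCC, a loose 9-base kappa B pattern that was chosen after the sequences had been seen.
Sele: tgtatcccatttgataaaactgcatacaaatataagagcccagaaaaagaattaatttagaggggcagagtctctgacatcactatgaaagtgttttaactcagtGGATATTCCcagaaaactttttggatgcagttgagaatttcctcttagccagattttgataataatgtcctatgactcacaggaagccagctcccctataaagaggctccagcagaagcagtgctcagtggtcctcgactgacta
Selp: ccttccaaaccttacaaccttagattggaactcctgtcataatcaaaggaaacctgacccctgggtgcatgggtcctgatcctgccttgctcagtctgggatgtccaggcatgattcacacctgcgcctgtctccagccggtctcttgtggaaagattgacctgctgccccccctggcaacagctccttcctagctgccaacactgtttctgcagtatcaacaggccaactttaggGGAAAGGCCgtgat
Icam1: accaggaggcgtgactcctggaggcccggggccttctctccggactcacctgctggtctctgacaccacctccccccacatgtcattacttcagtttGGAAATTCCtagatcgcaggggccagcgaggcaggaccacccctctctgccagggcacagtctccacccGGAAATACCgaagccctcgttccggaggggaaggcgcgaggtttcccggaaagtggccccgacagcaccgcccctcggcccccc
The *Sele* match, GGATATTCC, lay 145 to 137 bases before the start, and a TATAAA box lay at 49 to 44 bases. The *Selp* match, GGAAAGGCC, lay 14 to 6 bases before the start. *Icam1* held a pair of matches, GGAAATTCC at 153 to 145 bases and GGAAATACC at 84 to 76 bases. Of all 32851 promoter windows of the same length, 15.66% held GGNNNTTCC and 12.37% held TATAAA. The windows of *Itgam* and *Itga4* held neither. The longer NF-kappaB decamer was found in none of these 5 windows and in 7.251% of all windows. A match is a description of the letters and was not tested as a site.

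The sham library held 11620 barcodes with 58653308 unique molecular identifiers (UMIs, each standing for 1 captured transcript), of which 9777 cells passed the filter of the study at a median of 4255 UMIs. The IR library held 8539 barcodes with 75033226 UMIs, of which 4880 cells passed at a median of 3951 UMIs. The upper limit of 2500 genes removed far more of the IR library, and without it 8260 IR cells and 11377 sham cells remained. Of all barcodes before filtering, 30 occurred in both libraries. Cell types were set by marker UMIs in each cell, and the names below mean endothelial-like, fibroblast-like and so on. Endothelial cells numbered 213 in sham and 47 in IR, mural cells (pericytes and vascular smooth muscle) 705 and 86, fibroblasts 2896 and 148, neutrophils 239 and 2359, classical monocytes 134 and 244, and macrophages 2966 and 349. The labels held against genes outside the gate: *Pecam1* was detected in 80.28% and 87.23% of endothelial cells, *Pdgfrb* in 85.11% and 93.02% of mural cells, and the pan-leukocyte gene *Ptprc* in 1.878% and 6.383% of endothelial cells. The neutrophil genes *S100a8* and *S100a9* were higher in the IR library in other types too, together at 23.64 CPM in sham and 475.6 CPM in IR in endothelial cells and at 38.15 and 621.8 CPM in B cells, and their part in the results was not tested. CPM, the level used throughout, are the UMIs of a gene for every 1000000 UMIs of that cell type in that library, and every interval is an exact 95% interval that covers counting error only. Where a count was 0, the level or share that it allows is that of 3 counts. Median mitochondrial shares were 1.949% in sham and 4.955% in IR classical monocytes, 2.979% and 6.174% in macrophages, and 6.549% and 10.76% in mural cells. In endothelial cells they were 13.59% and 13.37%, and the part of these shares in the results was not tested.

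For 5 of the 9 types compared, the cells of both libraries lay mostly in different clusters when all cells were clustered without the 9 members. Sham neutrophils lay in cluster 15 (70.71%) and cluster 5 (26.78%), and IR neutrophils in cluster 2 (60.24%) and cluster 5 (37.69%). Sham macrophages lay in clusters 1 (58.53%) and 3 (38.37%), and IR macrophages in cluster 9 (86.82%). Of the sham classical monocytes 88.06% lay in cluster 10, which took no name, and 97.95% of the IR ones in cluster 11. Sham fibroblasts lay in cluster 0 (99.31%) and IR fibroblasts in clusters 16 (53.38%) and 0 (45.95%), and B cells in cluster 4 in sham (96.24%) and cluster 6 in IR (95.69%). A difference in one of these types is thus largely between cells of different clusters. Classical monocytes had no cluster with at least 20 cells of each library, and for the others values within a cluster that both libraries share are given below.

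In the sham heart the 9 genes divided between stromal cells and leukocytes. The levels of *Vcam1* were highest in fibroblasts (177.4 CPM) and endothelial cells (166.9 CPM), whose intervals overlapped. *Icam1* was highest in macrophages (70.46 CPM), then classical monocytes (53.11 CPM) and fibroblasts (50 CPM). *Selp* stood at 29.2 CPM in endothelial cells and 18.89 CPM in neutrophils, again with overlapping intervals. *Sele* was low everywhere, at 13.43 CPM in mural cells and 5.562 CPM in endothelial cells. *Selplg* was led by neutrophils (1152 CPM) and NK cells (775.9 CPM), while *Itgal*, *Itgb2* and *Itga4* were led by the 54 nonclassical monocytes at 1102, 790.6 and 422 CPM, and *Itgam* by neutrophils at 226.7 CPM. In the IR library *Icam1* and *Vcam1* were highest in endothelial cells among the types with at least 20 cells, where *Selp* had also been highest in sham, and *Sele* was again highest in mural cells. For *Icam1* the lead was small, at 160.4 CPM against 156.1 CPM in fibroblasts. Without the highest endothelial cell it was 126 CPM. Without the upper gene limit, *Selp* in sham was highest in neutrophils rather than endothelial cells.

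**Figure D1:**
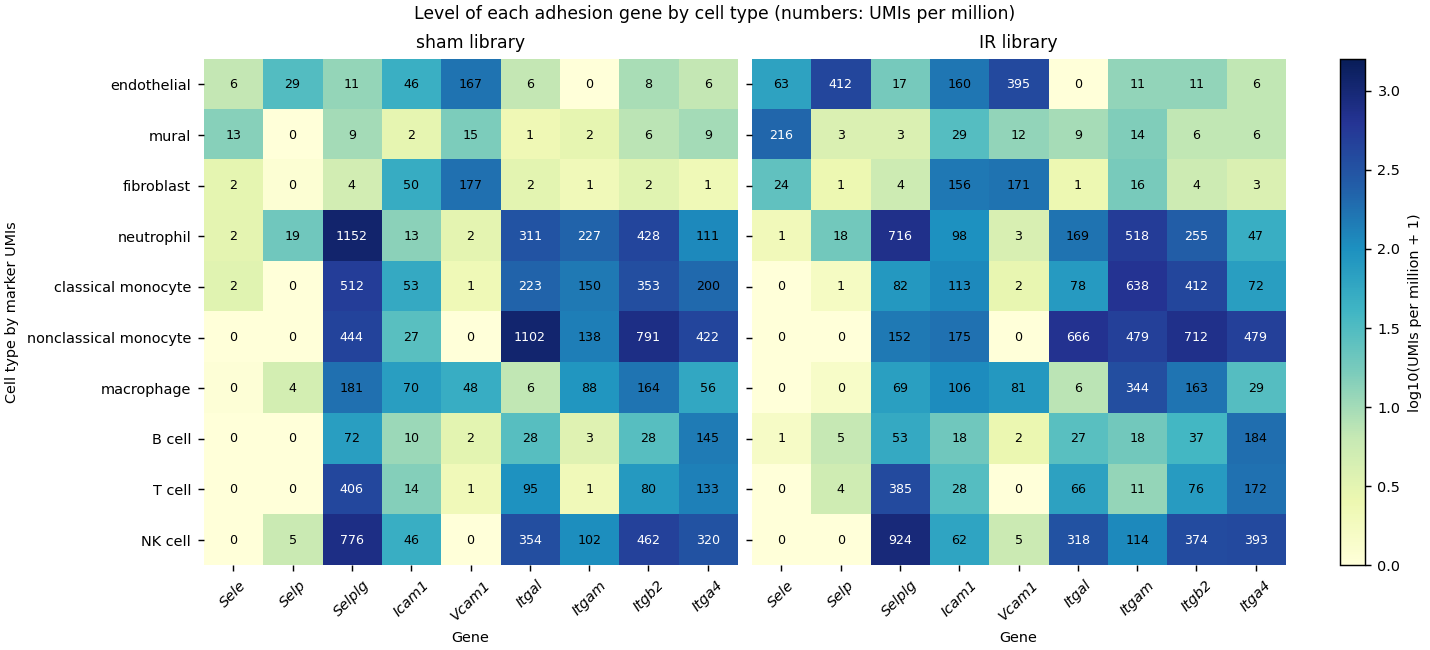
Level of each of the 9 genes in CPM (numbers in the squares, colour on a log10 scale) for 10 cell types in the sham library (left) and the IR library (right). *Vcam1* is highest in the endothelial and fibroblast rows in both libraries, and *Icam1* is spread over stromal and leukocyte rows. The integrin chains and *Selplg* are highest in the leukocyte rows, and the endothelial *Selp* value goes from 29.2 to 412.5.

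Between the libraries, 20 of 51 member and cell type pairs with at least 20 UMIs differed by 2-fold or more, 14 of them higher and 6 lower in IR. The 14 include *Itgam* in fibroblasts and B cells, described below with the levels of neutrophil genes there, and without those pairs 12 of 49 were higher. All 3 members with enough UMIs in endothelial cells were higher, against 9.55% of all genes there, and 14.1% of all genes were lower. In fibroblasts 3 of 7 members, *Itgam* among them, were higher and none lower (12.2% and 14.5% of all genes). In mural cells 1 of 2 was higher and none lower (7.57% and 10.9%). In neutrophils 2 of 8 members were higher and 1 lower, against 11.7% and 17.3% of all genes. The higher members there include *Itgam* by its first entry alone, which falls just under 2-fold with both entries counted. In classical monocytes 2 of 6 were higher and 3 lower (14.3% and 20.9%), and in macrophages 1 of 8 was higher and 2 lower (10.5% and 7.57%). Among lymphocytes, 1 of 6 members (*Itgam*) was higher in B cells and none lower (5.73% and 4.57% of all genes), 1 of 5 was higher in T cells and none lower (5.46% and 4.75%), and none of 6 passed either way in NK cells (13.1% and 8.27%). The median log2 ratio of the members was 1.81 in endothelial cells, 1.80 in mural cells, 0.92 in fibroblasts and -0.63 in classical monocytes, where the medians of all genes were -0.03, 0.00, -0.00 and -0.19. It was -0.37 in neutrophils, 0.06 in macrophages and 0.20 in NK cells, where the medians of all genes were -0.10, 0.13 and 0.17.

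**Figure D2:**
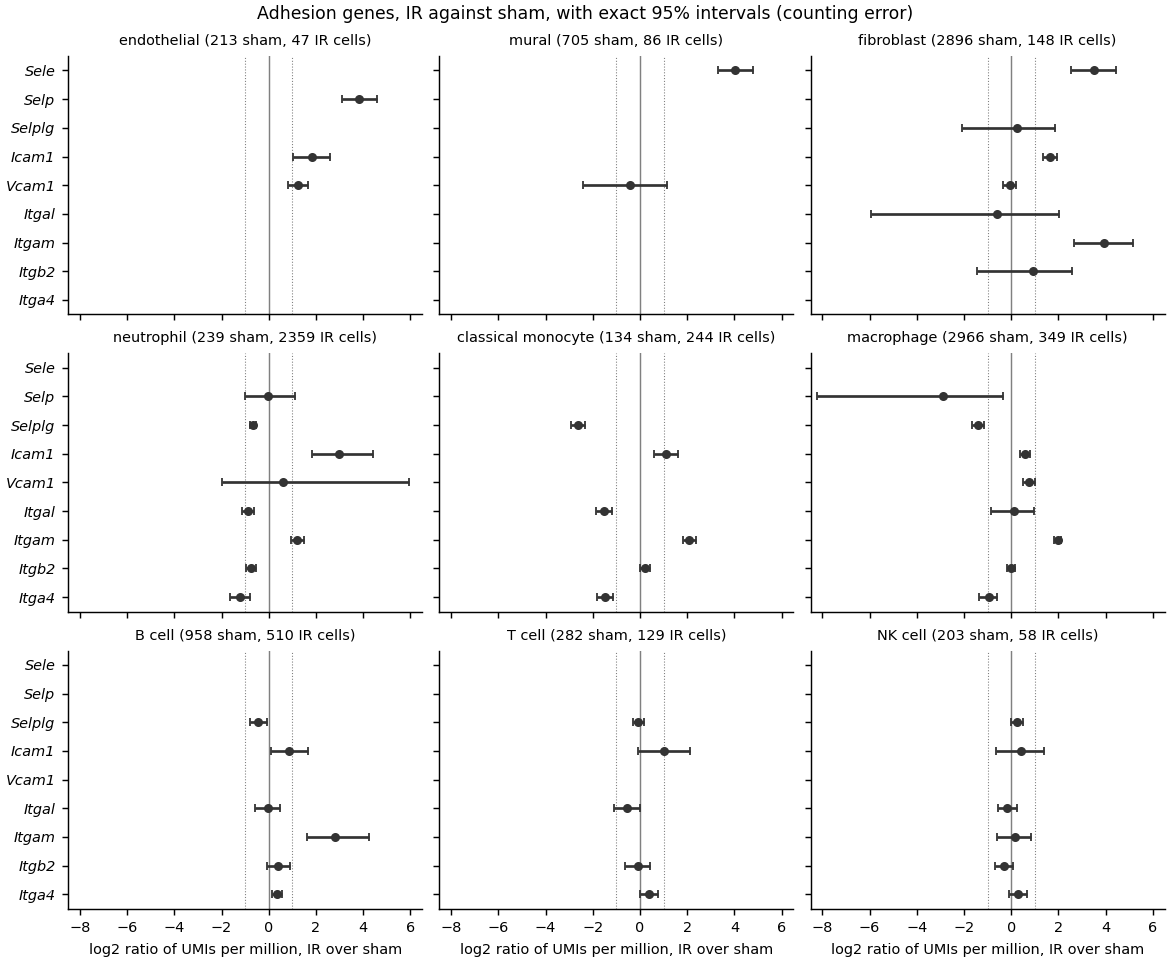
Log2 ratio of CPM, IR over sham, for each gene with at least 20 UMIs in a cell type, with exact 95% intervals for counting error and dotted lines at 2-fold. *Sele* in mural cells (4.01) and *Selp* in endothelial cells (3.82) lie far to the right, *Selplg* in classical monocytes (-2.64) lies to the left, and the T cell and NK cell intervals all reach within 2-fold.

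*Sele* (ENSMUSG00000026582, chr1:164048234-164057677, plus strand, GRCm38) encodes E-selectin, the selectin that inflamed endothelium makes anew. In the IR library most of its UMIs lay in other cells, and the gene limit set where. Of 150 UMIs in kept cells, 50% lay in mural cells, 22% in cells with markers of more than 1 lineage, 10.67% in fibroblasts and 7.333% in endothelial cells. With no upper gene limit there were 739 UMIs, with 17.32% in mural cells, 34.64% in the cells of more than 1 lineage, 33.96% in fibroblasts (251 UMIs in 72 of 1280 cells) and 11.5% in endothelial cells. In mural cells the level was 13.43 CPM in sham (21 UMIs) and 216.2 CPM in IR (75 UMIs), a log2 ratio of 4.01 (3.30 to 4.78). The share of mural cells with a *Sele* UMI was 1.986% in sham and 23.26% in IR, and 1.228% and 11.57% after each cell was thinned to 1000 UMIs. In B cells, which should lack the gene, the shares were 0 of 958 and 1 of 510 cells, at median depths of 2129 and 3406 UMIs against 1867 and 3962 in mural cells.

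The *Sele* UMIs of mural cells lay on the pericyte side. All 14 sham cells and all 20 IR cells with *Sele* had at least 2 pericyte markers. Cells with leading pericyte markers had it in 13 of 529 (2.457%) and 20 of 60 (33.33%). Cells with leading smooth muscle markers had it in 0 of 150, which allows up to 2%, and in 0 of 16 in IR, which allows up to 18.75%. No endothelial marker was detected in 12 of the 14 sham cells and 17 of the 20 IR cells, and no cell had more than 1. The gate itself keeps cells with many markers of another lineage out of the mural type, so these low counts were partly set by it. Among all mural cells without an endothelial marker, 1.843% in sham and 22.08% in IR had *Sele*, near the shares of mural cells as a whole.

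A single IR mural cell held 42 of the 75 UMIs, the next highest cells held 5 and 4, and 12 cells held 1 each. Without that cell the IR level was 97.08 CPM and the log2 ratio 2.85 (2.02 to 3.72). With no upper limit on genes, 30 of 124 IR mural cells had *Sele* at a log2 ratio of 3.79. The mural *Sele* cells of the IR library were also the cells rich in chemokines: *Ccl2*, which draws monocytes, stood at 6732 CPM against 1010 CPM in the 66 mural cells without *Sele*. *Cxcl1*, which draws neutrophils, stood at 3014 against 510.7 CPM, and the cytokine *Il6* at 1070 against 255.4 CPM, though *Il6* was found in 4 of the 20 cells. These 3 genes were picked because they stood highest against the cells without *Sele*. With no gene limit *Ccl2* stood highest again, but *Cxcl1* and *Il6* were not among the first 8.

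**Figure D3:**
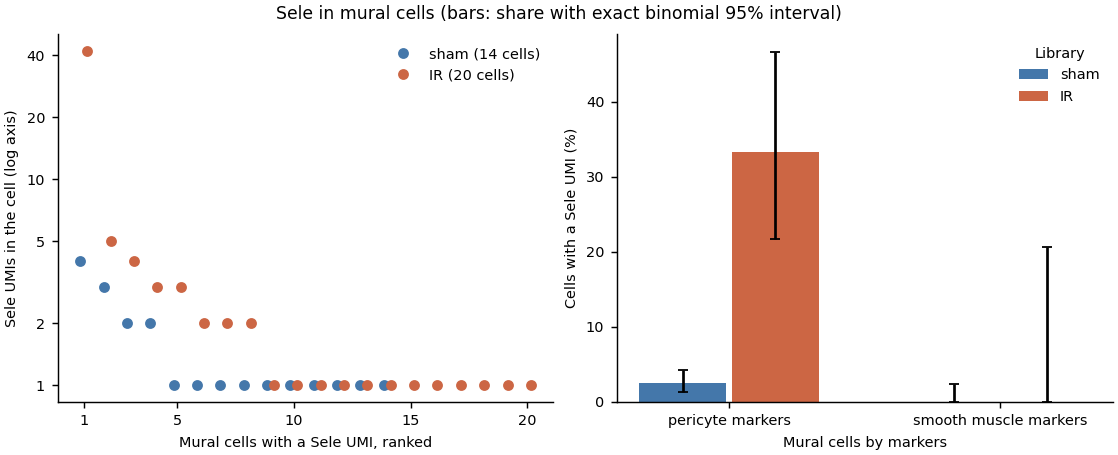
Left, *Sele* UMIs (log axis) in each mural cell with at least 1, ranked, for 14 sham and 20 IR cells. Right, share of cells with a *Sele* UMI among mural cells with leading pericyte or smooth muscle markers, with exact binomial 95% intervals: the pericyte share goes from 2.457% to 33.33%, no smooth muscle cell had a UMI, and 1 IR cell stands apart at 42 UMIs.

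In endothelial cells *Sele* had 4 UMIs in sham and 11 in IR, in 2 cells each, at 5.562 and 63.03 CPM, which was under the 20 UMIs required of a comparison. The upper gene limit decided this count. Without it the IR library had 85 UMIs in 8 of 76 endothelial cells and the log2 ratio was 5.46 (4.05 to 7.37), and 4.57 without the cell that held 41 of them. In fibroblasts *Sele* was at 2.071 CPM in sham (29 UMIs in 15 of 2896 cells) and 23.78 CPM in IR (16 UMIs in 6 of 148 cells), a log2 ratio of 3.52 (2.54 to 4.45). Without the cell that held 6 of those 16 UMIs it was 2.86 (1.66 to 3.94), and with no gene limit 2.71 (2.22 to 3.25). The 68 IR fibroblasts of cluster 0 had no *Sele* UMI, which allows up to 10.56 CPM. The fibroblast call was lost under the strictest marker gate, which left 46 IR fibroblasts.

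*Selp* (ENSMUSG00000026580, chr1:164115264-164150026, plus strand) encodes P-selectin, which endothelial cells and platelets store in granules and bring to the surface within minutes. In endothelial cells its level was 29.2 CPM in sham (21 UMIs in 7 cells) and 412.5 CPM in IR (72 UMIs in 11 cells). The log2 ratio was 3.82 (3.10 to 4.60). The share of cells with a UMI was 3.286% in sham and 23.4% in IR, and 1.455% and 17.71% after thinning, against 0 of 958 and 8 of 510 B cells. One IR endothelial cell held 33 of the 72 UMIs, and without it the ratio was 3.0 (2.20 to 3.84). Platelets also carry *Selp*, and the summed platelet markers in endothelial cells were at 4.171 CPM in sham (3 UMIs) and 40.11 CPM in IR (7 UMIs), whose part in the result was not tested.

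The endothelial *Selp* was found by vessel type, which was set by 4 markers for each. Capillary cells, the most numerous, had 0 UMIs of *Selp* and of *Sele* in both libraries (106 sham and 25 IR cells), which allows up to 8.197 CPM in sham and 29.62 CPM in IR. Venous or endocardial cells had 17 *Selp* UMIs at 218.3 CPM in 28 sham cells and 43 UMIs at 1602 CPM in 6 IR cells, a log2 ratio of 2.88 (2.04 to 3.78). Single cells carried much of both values: 12 of the 17 sham UMIs and 33 of the 43 IR UMIs each lay in 1 cell. Without that IR cell the level was 526.8 CPM and the ratio 1.27 (-0.02 to 2.48), and without both cells it was 2.95 (1.26 to 4.84) on 5 and 10 UMIs. *Selp* was found in 0 of 14 lymphatic cells in sham and in 5 of 6 in IR, where 25 UMIs gave 1796 CPM. Against the level that 3 UMIs would give in the sham lymphatic cells, this was 28.87-fold higher, and the exact interval of the log2 ratio began at 4.45. All 5 had at least 2 lymphatic markers and the lymphatic chemokine *Ccl21a*. With no gene limit the lymphatic count was 0 of 16 and 7 of 9 cells, at 23.96-fold against the same floor with an interval from a log2 ratio of 4.21. Capillary cells in IR then showed 7 *Selp* UMIs in 4 of 42 cells and 43 *Sele* UMIs in 2 cells.

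**Figure D4:**
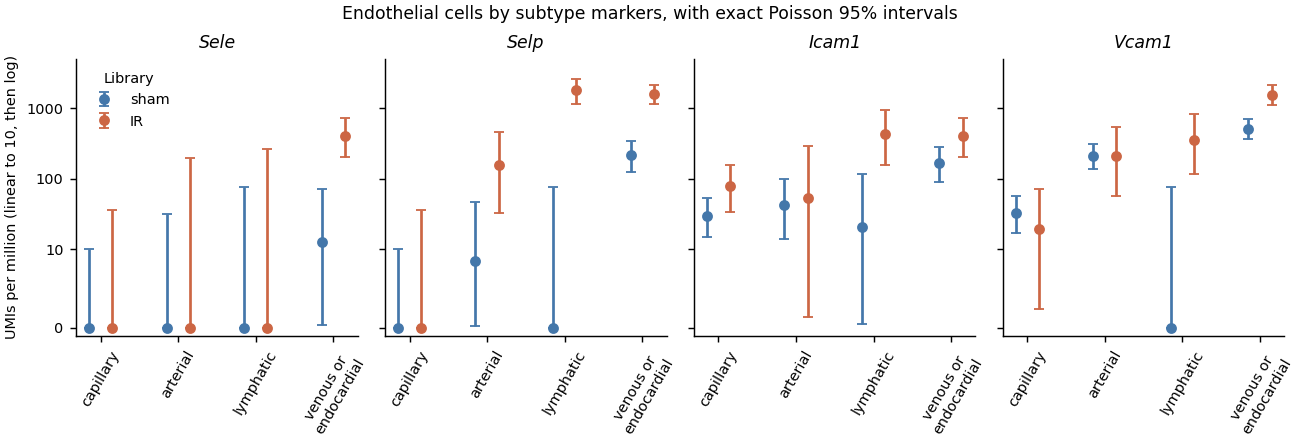
Level in CPM (linear to 10, then log) of *Sele*, *Selp*, *Icam1* and *Vcam1* in endothelial cells by subtype markers, sham and IR, with exact Poisson 95% intervals. Capillary *Sele* and *Selp* sit at 0 in both libraries, while lymphatic *Selp* goes from 0 to 1796 and venous or endocardial *Selp* from 218.3 to 1602, or 526.8 without 1 IR cell.

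Leukocytes carried *Selp* too. Neutrophils had 18.89 CPM in sham and 18.29 CPM in IR, a log2 ratio of -0.05 (-1.0 to 1.11), with thinned shares of 1.705% and 1.839%, and since neutrophils made up 2359 IR cells they held 56.15% of the 317 *Selp* UMIs of that library. With no gene limit neutrophils held 29.45% of 669 UMIs, endothelial cells 27.2% and cells with markers of more than 1 lineage 28.55%. Platelet markers in neutrophils were at 10.5 and 13.46 CPM. The 14 cells gated as platelets had no *Selp* UMI, but with 5946 and 6132 UMIs in all they allow up to 504.5 and 489.2 CPM. In macrophages *Selp* was at 3.652 CPM in sham (51 UMIs) and 0.4878 CPM in IR (1 UMI), a log2 ratio of -2.90 (-8.24 to -0.36).

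The sham macrophage *Selp* sat in 13 of 2966 cells. Of these, 7 shared high levels of *Slpi* (a protease inhibitor), *Prg4* (lubricin), *Fn1* (fibronectin), *Alox15* (a lipoxygenase) and *Saa3*. *Prg4*, for one, was at 3814 CPM in the *Selp* cells and 0.8648 CPM in the other macrophages. The median depth of the *Selp* cells was 8396 UMIs against 4599. With no gene limit there were 29 such cells in sham, 21 of them with *Prg4*, and the macrophage ratio was -1.36 (-1.99 to -0.79). It was -0.32 when cell types were taken from clusters.

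*Selplg* (ENSMUSG00000048163, chr5:113818536-113832644, minus strand) encodes PSGL-1, the ligand that P-selectin binds on leukocytes. It was lower in IR in monocytes and macrophages, past 2-fold, and stayed within 2-fold in lymphocytes. Classical monocytes had 512.2 CPM in sham and 82.3 CPM in IR, a log2 ratio of -2.64 (-2.93 to -2.35), and macrophages 181.2 and 69.27 CPM, a ratio of -1.39 (-1.64 to -1.14). The share of monocytes with a UMI was 91.04% in sham and 34.02% in IR, and 39.38% and 8.172% after thinning. Neutrophils, which held 81.82% of the *Selplg* UMIs of the IR library, had 1152 and 716.4 CPM, a ratio of -0.69 (-0.81 to -0.56) that did not reach 2-fold. Within shared clusters the macrophage ratio was -0.39 (-1.05 to 0.21) in cluster 1 and -0.25 (-1.14 to 0.79) in cluster 9, and the neutrophil ratio in cluster 5 was -0.14 (-0.34 to 0.06), so none of these passed 2-fold. T cells had 406.2 and 385.2 CPM and NK cells 775.9 and 924.2 CPM, with ratios of -0.08 (-0.31 to 0.15) and 0.25 (0.01 to 0.49). B cells stood lowest of the leukocytes in both libraries, at 71.57 and 52.68 CPM.

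*Icam1* (ENSMUSG00000037405, chr9:21015985-21028817, plus strand) encodes the counter-receptor of LFA-1 and Mac-1. It was higher in IR past 2-fold in 5 of the 8 types with enough UMIs, the T cells described below among them. Endothelial cells had 45.89 CPM in sham (33 UMIs in 25 cells) and 160.4 CPM in IR (28 UMIs in 12 cells), a log2 ratio of 1.81 (1.03 to 2.58), and 1.46 (0.59 to 2.29) without the highest cell. Fibroblasts had 50 and 156.1 CPM, a ratio of 1.64 (1.33 to 1.94), with 17.37% and 35.81% of cells positive. Within cluster 0 the fibroblast ratio was 0.70 (0.03 to 1.30). In the IR fibroblasts the 53 *Icam1* cells carried *Ccl2* at 20375.0 CPM against 3822 CPM in the other 95, at median depths of 5189 and 4166 UMIs.

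Neutrophils went from 12.59 CPM (6 UMIs) in sham to 98.12 CPM (955 UMIs) in IR. This was the largest *Icam1* ratio of the types with enough UMIs, at 2.96 (1.83 to 4.41). In cluster 5 alone, with 64 sham and 889 IR cells, the levels were 11.17 CPM (2 UMIs) and 46.84 CPM (146 UMIs), a ratio of 2.07 (0.19 to 5.13). The share of neutrophils with a UMI was 1.674% and 20.81%, and 1.128% and 7.919% after thinning, against thinned shares of 1.017% and 1.813% in B cells. The 491 IR neutrophils with *Icam1* had *Tnf* at 1169 against 498.5 CPM in the rest, *Il1a* at 895.1 against 338.3 CPM, *Il23a* at 302 against 93.87 CPM and the checkpoint ligand *Cd274* at 369.1 against 171.9 CPM. Classical monocytes had 53.11 and 112.7 CPM, a ratio of 1.09 (0.61 to 1.59). Macrophages, which led in sham, had 70.46 and 105.9 CPM, a ratio of 0.59 (0.37 to 0.80), against -0.36 and -0.17 within clusters 1 and 9. The T cell ratio of 1.01 (-0.07 to 2.14) rested on 13 and 20 UMIs and fell under 2-fold in 4 alternative settings. Mural cells, at 1.918 and 28.83 CPM on 3 and 10 UMIs, had too few UMIs to compare.

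*Vcam1* (ENSMUSG00000027962, chr3:116109949-116129688, minus strand) encodes the counter-receptor of VLA-4. In endothelial cells it was at 166.9 CPM in sham (120 UMIs in 36 cells) and 395.4 CPM in IR (69 UMIs in 9 cells), a log2 ratio of 1.24 (0.80 to 1.68), although the share of cells with a UMI was 16.9% and 19.15%. The ratio rested on 1 cell. The same IR cell that held 33 *Selp* UMIs held 34 *Vcam1*, 7 *Icam1* and 4 *Sele* UMIs among its 7860, together with the endothelial gene *Vwf* and the endocardial gene *Npr3*. Without it the *Vcam1* ratio was 0.33 (-0.26 to 0.89), and with a mitochondrial limit of 10%, which left 17 IR endothelial cells, it was -1.24 (-2.49 to -0.20). With no upper gene limit it was 1.65 (1.37 to 1.93), and 1.27 (0.97 to 1.57) without the highest cell.

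Fibroblasts held 71.71% of the *Vcam1* UMIs of the sham library. Their level was 177.4 CPM in sham and 170.9 CPM in IR, a ratio of -0.05 (-0.34 to 0.22), yet 43.78% of the sham fibroblasts and 22.3% of the IR fibroblasts had a UMI (14.81% and 9.864% after thinning), so a smaller share of cells carried a like level. With no upper gene limit, which left 1280 IR fibroblasts, the level was lower in IR. It was then at 172.5 and 131.9 CPM, a ratio of -0.39 (-0.46 to -0.31). Within cluster 0 the levels were 177.8 and 98.53 CPM, a ratio of -0.85 (-1.44 to -0.32). Macrophages had 47.91 and 81.47 CPM, a ratio of 0.77 (0.51 to 1.01), in 9.71% and 13.18% of cells. The 288 sham macrophages with *Vcam1* had the chemokines *Cxcl10* at 984.2 against 441.8 CPM and *Ccl12* at 3355 against 1817 CPM. With no gene limit *Cxcl10* was again among the first 8, but *Ccl12* was not, and smooth muscle genes such as *Acta2* and *Myh11* were. In IR macrophages with *Vcam1* neither chemokine was among the first 8. Lymphocytes and monocytes within the gene limit had at most 6 *Vcam1* UMIs in either library. Without the limit classical monocytes had 3 in sham and 57 in IR, a ratio of 1.34 (-0.28 to 3.66).

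Several vascular members met in the same endothelial cells of both libraries. At least 1 of *Sele*, *Selp*, *Icam1* and *Vcam1* was detected in 25.35% of the sham and 42.55% of the IR endothelial cells, and at least 2 in 5.634% (12 of 213) and 23.4% (11 of 47). With no gene limit the shares with at least 2 were 6.939% and 28.95%. Of the 11 IR cells with *Selp*, 5 had *Icam1* (45.45%) and 5 had *Vcam1* (45.45%), against 19.44% and 11.11% of the 36 cells without it. Of the 7 sham cells with *Selp*, 2 had *Icam1* (28.57%) and 7 had *Vcam1* (100%), against 11.17% and 14.08% of the 206 cells without it. Both *Sele* cells of each library had *Selp*. Median depth was 3102 UMIs in sham and 3581 UMIs in IR endothelial cells, and the part that depth per cell plays in these shares was not tested.

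*Itgam* (ENSMUSG00000030786, chr7:128062640-128118491, plus strand) encodes CD11b, the alpha chain of Mac-1, and was the integrin chain that was higher in IR in the myeloid cells. Classical monocytes had 149.9 CPM in sham and 637.5 CPM in IR, a log2 ratio of 2.09 (1.82 to 2.37). Macrophages had 88.08 and 343.9 CPM, a ratio of 1.97 (1.83 to 2.10), and the share of macrophages with a UMI was 28.12% and 73.64%, or 7.693% and 28.91% after thinning. Neutrophils had 226.7 and 518.5 CPM, a ratio of 1.19 (0.92 to 1.48), with thinned shares of 19.96% and 38.33%. Within shared clusters the macrophage ratio was much the same, at 1.83 (1.47 to 2.17) in cluster 1 and 1.91 (1.12 to 2.82) in cluster 9, but the neutrophil ratio in cluster 5 was 0.33 (-0.06 to 0.76). NK cells stayed at 102.4 and 113.7 CPM, a ratio of 0.15 (-0.59 to 0.85). The monocyte ratio was 0.80 when types were taken from clusters, where the classical monocyte cluster held only 38 sham cells.

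*Itgam* also passed 2-fold in fibroblasts (1.071 and 16.35 CPM) and B cells (2.543 and 17.92 CPM). In the 922 sham and 21 IR B cells of cluster 4, *Itgam* had 7 UMIs and 1 UMI, a log2 ratio of 3.33 (-2.16 to 6.29). The share with a UMI in IR was alike in fibroblasts (6.081%), mural cells (5.814%), T cells (6.202%) and B cells (6.275%). B cells should largely lack the gene, so no expression was read from shares this near to theirs. *S100a8* and *S100a9* were also higher in IR in fibroblasts, at 25.93 and 468.2 CPM, and their part in these *Itgam* ratios was not tested. The second *Itgam* entry (ENSMUSG00000108596, chr7:128062683-128128160, plus strand) is named *Gm49368* in the annotation and overlaps the first on the same strand, so that how reads were divided between them is uncertain. It was at 60.87 and 45.11 CPM in neutrophils, a ratio of -0.43 (-0.98 to 0.16), against 1.19 for the first entry, and at 9.442 and 27.85 CPM in classical monocytes. Neutrophils had 3.724 UMIs of the first entry per UMI of the second in sham (2.452 to 5.822) and 11.49 in IR (10.42 to 12.7). All *Itgam* calls past 2-fold and the chain ratios below used the first entry alone. With both entries counted, at 108 and 29 UMIs in sham and 5046 and 439 UMIs in IR, the neutrophil ratio would fall just under 2-fold.

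*Itgal* (ENSMUSG00000030830, chr7:127296260-127335138, plus strand) encodes CD11a, the alpha chain of LFA-1. Classical monocytes had 223.1 CPM in sham and 77.86 CPM in IR, a log2 ratio of -1.52 (-1.86 to -1.18), which became -0.20 with types taken from clusters. Neutrophils had 310.7 and 168.6 CPM, a ratio of -0.88 (-1.13 to -0.63), which was 0.29 (-0.19 to 0.81) within cluster 5. NK cells had 353.6 and 317.5 CPM and T cells 95.39 and 65.83 CPM, both within 2-fold. Macrophages were low in both libraries at 5.8 and 6.342 CPM, whereas the nonclassical monocytes, too few to compare with 54 and 15 cells, stood at 1102 and 665.5 CPM.

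The balance between the alpha chains that share *Itgb2* differed between the libraries in myeloid types set by markers, though not in every grouping of the cells. These are ratios of 3′ UMIs within 1 cell type, not scaled for transcript length, so their change between libraries can be read and not the absolute proportion of the chains. Classical monocytes had 0.672 *Itgam* UMIs per *Itgal* UMI in sham (0.5323 to 0.8459) and 8.187 in IR (6.783 to 9.955). Neutrophils had 0.7297 (0.5641 to 0.9415) and 3.075 (2.908 to 3.253). Macrophages had 15.19 (12.12 to 19.26) and 54.23 (31.51 to 102.4). In these 3 types the intervals of sham and IR did not overlap. In NK cells they did, at 0.2896 and 0.3582. With types from clusters, classical monocytes had 4.294 (2.507 to 7.767) in sham, on 38 cells, and 8.609 (7.269 to 10.26) in IR, with overlapping intervals, while neutrophils (0.8286 and 3.086) and macrophages (13.53 and 48.67) still stood apart. In cluster 5 alone, neutrophils had 1.472 (0.9462 to 2.314) in sham and 1.52 (1.386 to 1.667) in IR. For macrophages no shared cluster gave both values, since *Itgal* had 0 UMIs in IR in cluster 1 and in sham in cluster 9. Sham macrophages of cluster 1 had 36.22 (23.97 to 57.45). IR macrophages of cluster 9 had 48.15 (27.95 to 90.95), and these intervals overlapped.

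**Figure D5:**
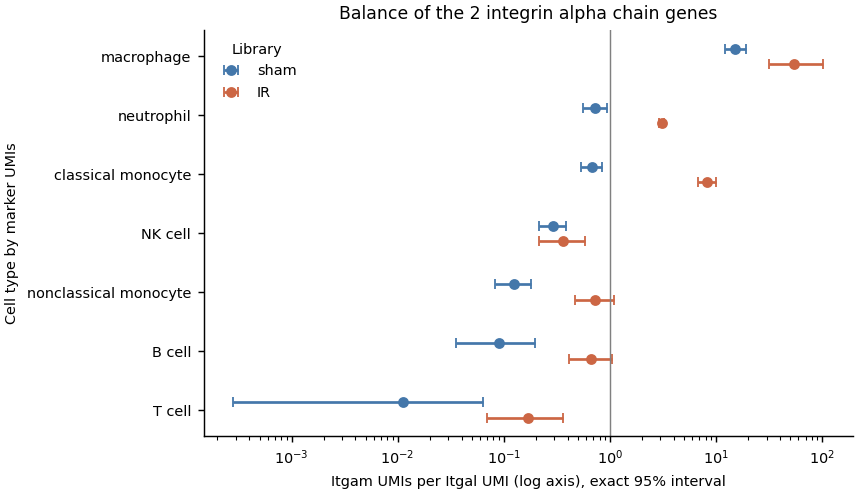
*Itgam* UMIs per *Itgal* UMI (log axis) in 7 leukocyte types of the sham and IR libraries, with exact 95% intervals and a line at 1. Classical monocytes move from 0.672 to 8.187 and neutrophils from 0.7297 to 3.075, across the line, while NK cells stay at 0.2896 and 0.3582. With types from clusters the sham classical monocytes would stand at 4.294.

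*Itgb2* (ENSMUSG00000000290, chr10:77530252-77565708, plus strand) encodes CD18, the beta chain common to LFA-1 and Mac-1, and passed 2-fold in no cell type. It was at 163.8 and 163.4 CPM in macrophages, a log2 ratio of -0.00 (-0.17 to 0.16), and at 352.9 and 412.1 CPM in classical monocytes, a ratio of 0.22 (0.02 to 0.43). Neutrophils had 428.2 and 255.3 CPM, a ratio of -0.75 (-0.95 to -0.53). NK cells had 462.3 and 374.4 CPM, a ratio of -0.30 (-0.68 to 0.06).

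*Itga4* (ENSMUSG00000027009, chr2:79255426-79333123, plus strand) encodes CD49d, the alpha chain of VLA-4. It was lower in IR in myeloid cells: classical monocytes had 199.5 and 71.53 CPM, a log2 ratio of -1.48 (-1.84 to -1.13), and neutrophils 111.3 and 47.06 CPM, a ratio of -1.24 (-1.65 to -0.80). Within cluster 5 the neutrophil direction turned, at 89.38 and 101.1 CPM and a ratio of 0.18 (-0.55 to 1.0). Macrophages had 55.93 and 28.78 CPM, a ratio of -0.96 (-1.37 to -0.58) just under 2-fold, or -1.09 relative to the median of all genes in macrophages, and 0.21 and -0.97 within clusters 1 and 9. Lymphocytes did not share this. B cells had 144.6 and 183.6 CPM, T cells 132.9 and 172.3 CPM and NK cells 320 and 393.4 CPM, with ratios of 0.34 (0.13 to 0.56), 0.37 (0.00 to 0.75) and 0.30 (-0.09 to 0.67). Schwann cells also carried the gene in sham, with 11 UMIs in 11 of 36 cells (136.3 CPM).

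Of 56 other genes of leukocyte adhesion, in 5 sets, 30 had enough UMIs in endothelial cells, and 2 of them were higher and 3 lower by 2-fold or more. Those shares were no larger than the 9.55% and 14.1% of all genes there, so the list as a whole did not stand apart and its genes are named by size. *Mcam*, a junction molecule, was at 116.8 CPM in sham and 343.8 CPM in IR, while *Icam2*, the ICAM that resting endothelium makes, was at 490.8 and 212 CPM, a log2 ratio of -1.21 (-1.74 to -0.72). *Rapgef1*, an exchange factor of the integrin-activating GTPase Rap1, was at 121 and 28.65 CPM. The last 2 stayed within 2-fold with no gene limit, at -0.85 and -0.96.

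In neutrophils 37 of the 56 had enough UMIs, with 9 higher and 10 lower, against 11.7% and 17.3% of all genes. *Itgb7* was at 27.29 and 6.37 CPM and *Fermt3*, the kindlin that integrin activation needs in blood cells, at 56.68 and 25.69 CPM. Among the enzymes that build selectin ligands, 3 of 5 were higher and none lower, with a median of 1.23 against -0.10 for all genes, and *Tpst2*, which sulphates PSGL-1, was at 29.39 and 72.54 CPM. *Alcam* was at 33.59 and 132.4 CPM, and *Pecam1* at 6.297 and 18.8 CPM on 3 sham UMIs.

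In macrophages 7 of 37 were higher and 4 lower, against 10.5% and 7.57% of all genes. The higher genes included 4 of the 6 other integrin subunits, but with no gene limit 2 of 6 were higher and 1 lower. *Itgax* (CD11c) was at 6.445 and 26.83 CPM, *Itga5*, a chain of the fibronectin receptor, at 19.91 and 58.54 CPM, and *Alcam* at 36.3 and 89.76 CPM. *Pecam1*, *Icam2* and *Cyth1* were lower, at ratios of -1.90, -1.05 and -1.02. In classical monocytes 7 of 33 were higher and 8 lower, against 14.3% and 20.9% of all genes. *Itga5* was at 18.88 and 113.3 CPM, the hyaluronan receptor *Cd44* at 384.8 and 1715 CPM and *Alcam* at 33.05 and 116.5 CPM. *Rasgrp2*, which switches on Rap1, was at 161.7 and 28.49 CPM and the chemokine receptor *Cx3cr1* at 116.8 and 22.79 CPM. *Spn* was at 66.1 and 6.964 CPM, but it served as a marker of the nonclassical type in the gate. Fibroblasts had 5 of 35 higher and 4 lower (12.2% and 14.5% of all genes), mural cells 1 of 26 and 2 (7.57% and 10.9%), and B cells 4 of 31 and 3 (5.73% and 4.57%). T cells had 0 of 28 and 1 (5.46% and 4.75%), and NK cells 2 of 27 and 2 (13.1% and 8.27%).

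The genes whose levels over 20 cell type and library sums ran closest to each member, of 7104 compared by Pearson correlation of log2(CPM + 10), were as follows. *Selp* was followed most closely by *Apln* (0.940), *Tmem252* (0.932) and *Sema3a* (0.930), and *Sele* by *Cfap69* (0.937), *Adamts4* (0.897) and *Syn3* (0.892). *Vcam1* ran with *Cpne8* (0.969), *Ppfibp1* (0.918) and *Emp1* (0.905), and *Icam1* more loosely with *Slc20a1* (0.774), *Itga5* (0.772) and *Mapk6* (0.756). *Selplg* ran with *Arhgap9* (0.964), *Ptprc* (0.938) and *Hcst* (0.937), *Itgal* with *Bin2* (0.911), *Arhgap9* (0.899) and *Rab8a* (0.897), and *Itga4* with *Sin3b* (0.894), *Bin2* (0.893) and *Zfp36l2* (0.893). *Itgam* ran with *Plek* (0.959), *Osm* (0.940) and *Fcgr3* (0.930), and *Itgb2* with *Cyth4* (0.940), *Myo1f* (0.940) and *Pik3r5* (0.939). The sums share libraries and depth, and with the sham library alone 7 of these 27 pairs recurred.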

How the data were processed

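Single-cell RNA-seq of digested mouse left ventricle was made with a 10× Chromium 3′ kit. The authors aligned reads to mm10, and the deposited matrices, 1 for each group, hold raw UMI counts per gene and barcode (Cell Ranger 3.1.0 per the file headers). A count is a deduplicated transcript, so it is not inflated by PCR copies, but it is read near the 3′ end and gives no splice form.

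Cells with 200–2500 genes and at most 30% mitochondrial UMIs were kept, as in the study's methods. Its filter on rarely detected genes was not applied, since sums do not need it. The cell numbers that it gives lie between those kept here with and without the upper gene limit. A cell was assigned to the lineage with most of its 8 markers detected, at least 3, when no other lineage had more than 0.5 times as many. Within mononuclear phagocytes and within T and NK cells a type had to lead by 2 markers. Cells with markers of a pair of lineages were set aside as mixed, which stands in for doublet removal, and no doublet caller was run. Of 104 markers, 4 were missing from the matrices. The 9 members were no markers. Of the wider adhesion list, 1 of 57 genes was missing (*Cd99*), and *Emcn*, *Cdh5* and *Spn* were also gate markers. Endothelial cells were split by lists of 4 markers.

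UMIs were summed per type and library (numpy 2.4.6, scipy 1.17.1, pandas 2.3.3 on Python 3.11.15). Sums have exact Poisson, shares Clopper-Pearson and log2 ratios conditional binomial 95% intervals. With 1 library per group these cover counting error only: they hold neither the spread between hearts nor between preparations. Types with at least 20 cells in both libraries were compared, on genes with at least 20 UMIs over both, and 2-fold was the threshold. A sum of 0 was set against a floor of 3 UMIs over the type and library. Thinned shares are the expected share of cells with a UMI among 1000 drawn from each deeper cell. Cells with a member were set against those without after adding 20 CPM, and the genes named come from the 8 that stood highest. The ratio step was tested on simulated counts.

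Alternatives were no upper gene limit, a mitochondrial limit of 10%, a stricter gate, Leiden clusters (leidenalg 0.10.2), per-cell means, centred ratios, totals without free-RNA genes, 1.5-fold and thinning to 500 UMIs. Leaving out the IR cell with most UMIs of a gene, values within a cluster and chain ratios by cluster were added after seeing the data. The wider genes named were the 3 with the largest ratios past 2-fold either way in endothelial cells, neutrophils, macrophages and classical monocytes, on at least 50 UMIs, except 1 that is not reported here. Members, markers and lists were chosen with earlier results of these data known. Positions are from GENCODE on GRCm38, and promoters from RefSeq.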

Additional observations from a re-analysis of the deposited data

Results flagged for a closer look

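Cells with markers of more than 1 lineage entered no comparison, and 5 of the 9 genes were higher there in the IR library (692 cells) than in the sham library (656 cells), which serves as the control, with intervals that did not overlap. *Selplg* was lower by the same measure, at 245.9 and 174.5 CPM, and the intervals of the other 3 genes overlapped. The share of all genes with intervals apart was not computed in these cells, so these counts do not set the 9 genes apart from other genes. *Sele* was at 1.659 CPM in sham (5 UMIs) and 9.66 CPM in IR (33 UMIs). *Selp* was at 1.991 and 13.76 CPM, and *Icam1* at 35.83 and 86.94 CPM. *Itgam* was at 46.45 and 240.9 CPM, and *Itgb2* at 140.4 and 170.7 CPM. These cells held 22% of the *Sele* UMIs of the IR library, and whether they are doublets was not tested.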

How the results depend on the processing

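No paired analysis was possible because the cells of each matrix carry no sample or replicate number, and for the same reason no replicate could be left out. Of the 20 ratios past 2-fold, all 20 stayed past it with no upper gene limit and with totals free of mitochondrial, hemoglobin, cardiomyocyte, *S100a8* and *S100a9* UMIs. With the mitochondrial limit of 10%, per-cell means or centred ratios 19 did, with the stricter gate or without the highest IR cell 18, and with clusters 16. The 1 reversal under these settings was endothelial *Vcam1* at -1.24 under the mitochondrial limit. Within clusters that both libraries share, chosen after seeing the data, 8 values belonged to ratios past 2-fold and 3 of them stayed past it, and neutrophil *Itga4* turned to 0.18. The stricter gate left 46 IR fibroblasts and 119 IR macrophages and gave 0.00 for fibroblast *Sele* and macrophage *Selp*, where the IR count was 0.

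The 14 higher pairs stayed within 1.5 times under every setting, while the 6 lower pairs became 10 at 1.5-fold and 10 with no gene limit and without the highest cell. With no gene limit the fibroblast count of 3 became 5, also without the highest cell, when the endothelial count was 5. The fibroblast count was 1 under the stricter gate and 5 with clusters. The mural count of 1 became 3 with clusters, 2 with per-cell means and 2 without the highest cell. The macrophage count of 3 became 5 under the stricter gate and 6 at 1.5-fold, and the neutrophil count of 3 became 7 at 1.5-fold. The B cell count of 1 became 0 under the stricter gate and 2 at 1.5-fold. The T cell count of 1 became 0 with the mitochondrial limit, with centred ratios and without the highest cell. The causes were not tested, beyond the lower threshold or fewer cells that a setting makes. The type with the highest sham level was the same for 4 of 9 members when types came from clusters. Pairs of member and type in which at least 10% of thinned cells had a UMI fell from 26 to 16 in sham and from 20 to 13 in IR at 500 UMIs. With the sham library alone, 7 of the 27 most similar genes recurred. The values of the vascular genes rest on few cells, 47 IR endothelial and 86 IR mural cells.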

Other observations

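Nonclassical monocytes, the patrolling monocytes of the blood, were too few to compare (54 cells in sham and 15 in IR) and are given as values. They carried *Itgam* at 137.7 CPM in sham and 478.7 CPM in IR (31 and 41 UMIs) and *Selplg* at 444.2 and 151.8 CPM (100 and 13 UMIs). *Icam1* was at 26.65 and 175.1 CPM, on 6 and 15 UMIs. *Itgb2* was at 790.6 and 712.2 CPM and *Itga4* at 422 and 478.7 CPM, with overlapping intervals between the libraries for both. Their *Itgam* UMIs per *Itgal* UMI were 0.125 (0.08314 to 0.182) in sham and 0.7193 (0.4694 to 1.094) in IR.

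Among the 141 IR neutrophils with *Selp*, the gene that stood highest against the other 2218 was the chemokine *Cxcl1*, at 566.8 against 261.8 CPM, in cells of median depth 4203 and 3890 UMIs. The 8 sham dendritic cells held 14 UMIs each of *Selplg* and *Itgb2* and 9 UMIs of *Itga4* in sum, and no dendritic cell passed the gate in IR.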
